A study of Mus musculus with 576 samples.

Results

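The LPS p27 low group consists of single haematopoietic stem cells sorted from the marrow of LPS-treated mice and falling in the low class of a p27 marker. Its members were the 96 cells that carry both labels, of which 90 were kept because they had at least 50000 reads assigned to genes and at least 1000 detected genes. They are 90 of the 547 cells kept in the whole series and of 576 cells in its count tables. No measured difference between groups entered this choice. The kept cell closest to the limit had 67389 gene reads, and of the 6 cells removed the closest had 45539 gene reads and the other 5 between 5322 and 16223.

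The series compares 3 p27 marker classes (high, low and negative) in LPS-treated and in control marrow, which gives 6 groups with 1 set of cells each. All groups share one sort, of mouse femur and tibia marrow for cells that carry CD150, cKit and Sca1 and lack CD48. Cells went singly into wells with lysis buffer and were sequenced by the full-length Smart-seq2 protocol. The groups used here are LPS p27 low (90 cells), LPS p27 high (93 cells), LPS p27 negative (92 cells) and, as the untreated counterpart, control p27 low (93 cells). The labels give neither the number, age, sex or strain of the animals nor the dose and time of LPS, and they do not describe how the p27 marker was read. Each group was therefore 1 sample, no test between groups could be made, and differences between animals, plates and sorts cannot be told apart from differences between groups. Intervals printed below are exact 95% Poisson intervals for read counts and exact Clopper-Pearson intervals for shares of cells, and they cover counting error only.

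Haematopoietic stem cells rest outside the cell cycle for most of adult life and can be drawn into activity by infection. Lipopolysaccharide (LPS), a component of the outer membrane of Gram-negative bacteria, is sensed through Toll-like receptor 4 and leads to NF-kB activity and to interferon production. Type I and type II interferons act through JAK kinases and STAT factors to induce large sets of interferon-stimulated genes, and p27, the product of Cdkn1b, is an inhibitor of cyclin-dependent kinases that is abundant in resting cells.

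The 90 cells had between 67389 and 908580 gene reads, with a median of 287584. When every cell was reduced to 50000 randomly drawn gene reads, the median cell held 3972 genes (range 2989 to 4917), against 3972 in LPS p27 high, 4920 in LPS p27 negative and 4157 in control p27 low cells. Gene reads per spike-in read, a measure of RNA per well, had a median of 24.3 against 24.9 in LPS p27 high, 46.2 in LPS p27 negative and 18.1 in control p27 low cells. Reads of mitochondrially encoded genes took a median of 5.26% of gene reads, and 1 cell alone stood above 10%, at 19%. One cell, number 55 by its label, was the second deepest with 898604 reads, contributed 3.24% of all reads of the group and ranked high for many inflammatory genes. Values that rest on this cell are given with and without it.

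The sorting genes were present but uneven. After reduction to 50000 reads, 72 of 90 LPS p27 low cells held a read of Kit, 81 of Ly6a (a Sca1 gene) and 33 of Slamf1 (CD150), while 10 held a read of Cd48. In control p27 low cells these numbers were 93, 42, 35 and 11 of 93. Defining genes of other lineages were at 0 reads over the whole group for Ms4a1, Ighm, Pax5, Cd3e, Cd8a and Gzma (lymphocytes), Cdh5, Col3a1 and Pdgfra (vessel wall and stroma), Ctsg and Ltf (granulocytes) and Slc4a1 (red cells). For such a gene 0 of 90 cells allows, by the limit of 3 counts of the total, a share of up to 3.33% of cells with a read. Of the whole marker lists, 10 of 20 lymphoid genes, 10 of 15 stromal and endothelial genes and 18 of 20 neutrophil and monocyte genes had at least 1 read in the group, while 12, 8 and 6 genes of these lists were found in no cell at 50000 reads per cell. Of the endothelial and stromal genes that were read, Kdr had 23.4 against 7.82 CPM in control p27 low cells, Pdgfrb 19.5 against 1.97, Pecam1 89.1 against 88.2 and Emcn 30.7 against 51.9 CPM. The summed CPM (counts per 1000000 gene reads) per cell had medians of 111, 34.4 and 538 for these lists, against 121, 11 and 952 in control p27 low cells. Lyz2 (lysozyme) was found in 84.4% of cells and Nkg7 in 54.4%, and in control p27 low cells these shares were 96.8% and 51.6%. Prtn3 was found in 45 of 90 cells, against 69 of 93 control p27 low cells. Of 16 erythroid genes 12 had at least 1 read in the group, and 4 were found in no cell at 50000 reads per cell. Their summed CPM per cell had a median of 2969, against 3184 in control p27 low cells. Hbb-bt had 10.6 CPM, with 72 of 90 cells at 0 and a highest cell at 311 CPM, against 71.5 CPM in the highest control p27 low cell.

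The 4 marker genes attached to the group were Usp18, an isopeptidase that removes Isg15 and dampens type I interferon receptor signalling, Ifit3, an antiviral interferon-induced protein, Slfn5, a Schlafen family member, and Gfi1b, a transcriptional repressor of erythroid and megakaryocytic development. Usp18 (ENSMUSG00000030107, chr6:121245906-121270917), Ifit3 (ENSMUSG00000074896, chr19:34583531-34588731), Slfn5 (ENSMUSG00000054404, chr11:82951349-82964840) and Gfi1b (ENSMUSG00000026815, chr2:28609450-28621982) are protein-coding genes, with coordinates on mm10. Promoters are shown because Usp18, Ifit3 and Slfn5 are known as interferon-inducible genes. The letters searched were GAAA, any 2 bases and GAAA again, on either strand in the 250 bases before the RefSeq gene start, the core of the interferon-stimulated response element, to which factors activated by interferon receptors bind. Sequences are from RefSeq on GRCm38.p6, 5′ to 3′ on the strand of the gene, and capitals mark each match.
Ifit3, chr19:34583358-34583431, plus strand, -171 to -98 from the start: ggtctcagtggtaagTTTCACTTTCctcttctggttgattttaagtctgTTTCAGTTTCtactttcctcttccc
Ifit1, chr19:34640770-34640828, plus strand, -119 to -61: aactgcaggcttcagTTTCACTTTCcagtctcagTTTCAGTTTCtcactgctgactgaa
Slfn5, chr11:82951932-82951971, plus strand, -170 to -131: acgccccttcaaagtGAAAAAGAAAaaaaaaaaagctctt
Cxcl10, chr5:92349078-92349117, minus strand, -228 to -189: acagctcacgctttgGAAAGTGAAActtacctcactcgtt
Distances are from the RefSeq start, which for Slfn5 lies inside the mm10 gene coordinates given above, so its window is within the annotated gene. The first 2 windows hold 2 matches each, on the strand opposite to the gene. No match was found in the windows of Gfi1b and Cxcl9, and no sequence was matched for Usp18 and Ccl5. The same letters were found for 936 of 27025 genes with a RefSeq window (3.46%). Among the listed interferon-gamma type genes they were found for 11 of 16 (68.8%), among interferon-stimulated genes for 9 of 26 (34.6%), among NF-kB and inflammatory genes for 0 of 18 and among stem cell genes for 2 of 30 (6.67%). A match describes the letters of a window and is not evidence that a factor bound there.

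Usp18 was the most widely seen of the 4 markers. Its summed level was 736 CPM (interval 726 to 746) in LPS p27 low cells, 385 in LPS p27 high, 629 in LPS p27 negative and 27.3 (25.5 to 29.2) in control p27 low cells. Single LPS p27 low cells ran from 0 through a median of 399 to 5661 CPM, against 0, 0 and 486 CPM in control p27 low cells. At 50000 reads it was found in 83.3% of cells (74 to 90.4), against 15.1% (8.48 to 24) in control p27 low cells. The ranges of single cells overlapped, and 54 of 90 cells held at least 100 CPM of Usp18 against 9 of 93 control p27 low cells.

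Ifit3 had 298 CPM in LPS p27 low cells, 284 in LPS p27 high, 73 in LPS p27 negative and 1.64 in control p27 low cells. It was an uneven gene within the group, with a per-cell median of 7.20 CPM and a highest cell at 2108 CPM. Reads were present in 45 of 90 cells at 50000 reads, against 1 of 93 control p27 low cells, and 31 of 90 cells held at least 100 CPM against 1 of 93 control p27 low cells. A further 39 cells held some Ifit3 reads below 100 CPM. Ifit3 has a close copy, Ifit3b, and the division of reads between them is uncertain.

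Slfn5 had 113 CPM in LPS p27 low cells, 87.4 in LPS p27 high, 15 in LPS p27 negative and 3.25 in control p27 low cells. It was found in 43.3% of LPS p27 low cells, 25.8% of LPS p27 high, 16.3% of LPS p27 negative and 4.30% of control p27 low cells. Slfn5 was the first of the genes higher than in LPS p27 negative cells when genes were ordered by their smallest log2 fold over 3 blocks of cell numbers (1 to 32, 33 to 64 and 65 to 96), with a log2 fold of 2.83 and a block range of 2.17 to 4.30. The blocks are not replicates and serve to show how evenly a value held over the cell numbers, and the labels do not say which cells shared a 96-well plate.

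Gfi1b did not follow the other 3 markers. Its level was 158 CPM (154 to 163) in LPS p27 low cells, 46.6 in LPS p27 high, 66.8 in LPS p27 negative and 183 (178 to 188) in control p27 low cells. The level was thus above both other LPS groups and not above the untreated counterpart. Over single cells its median was 0 and its highest value 2017 CPM, and 23 of 90 cells held at least 100 CPM against 32 of 93 control p27 low cells. The share of cells with a read was 31.1% in LPS p27 low, 28% in LPS p27 high, 34.8% in LPS p27 negative and 45.2% in control p27 low cells, and the LPS p27 low interval (21.8 to 41.7) held the share of LPS p27 high. Of the 4 markers, all were at 100 CPM or more in 6 of 90 cells and none in 24.

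**Figure D1:**
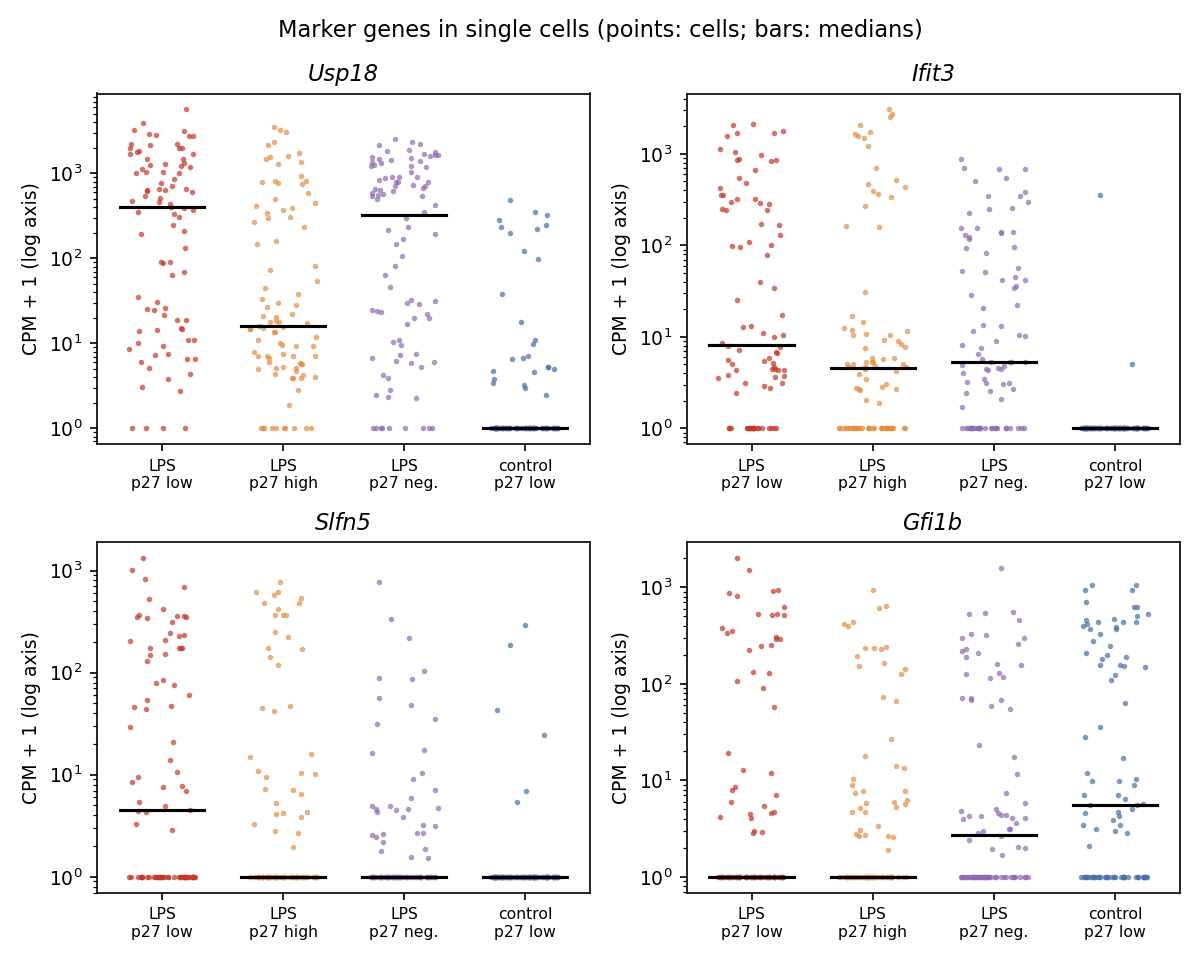
CPM + 1 of each marker gene on a log axis in every kept cell of the LPS p27 low, LPS p27 high, LPS p27 negative and control p27 low groups, with points for cells and bars for medians. Usp18, Ifit3 and Slfn5 reached high values in many LPS cells and in few control cells, while Gfi1b reached 100 CPM in 23 of 90 LPS p27 low and 32 of 93 control p27 low cells.

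Comparing genes with each other requires a level per length, so TPM (transcripts per 1000000, from the union of exons) was used for the order of levels. Leaving out mitochondrially encoded genes, ribosomal protein genes and pseudogenes, the 10 highest entries were CT010467.1, an annotated ribosomal RNA on chromosome 17, with 50362 TPM, then Serpina3g (17375), B2m (17155), Actb (10269), Ifitm3 (9571), Cxcl10 (8255), Ccl5 (7182), Car2 (3902), Slc34a2 (3620) and H2-K1 (3343 TPM). Together they made 13.1% of the TPM total, next to 9.79% for mitochondrially encoded and 3.57% for ribosomal protein genes. Serpina3g, an intracellular serine protease inhibitor, B2m and H2-K1, the light and a heavy chain of MHC class I, Ifitm3, which restricts virus entry, and the chemokines Cxcl10 and Ccl5 are all immune genes, and they stood beside beta-actin (Actb) and carbonic anhydrase 2 (Car2). Serpina3g had 442, 10041 and 63122 CPM in the lowest, median and highest LPS p27 low cell, against 7.12, 1162 and 7140 CPM in control p27 low cells. All 90 cells held at least 100 CPM of it, and the groups overlapped. Serpina3g has near-identical neighbours such as Serpina3f, so the division of reads within the cluster is uncertain.

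Chemokines were at once among the highest and the most uneven genes. Cxcl10, which draws T cells through Cxcr3, had 7265 CPM (7234 to 7297) in LPS p27 low, 5745 in LPS p27 high, 7750 in LPS p27 negative and 3.35 in control p27 low cells. It was read in every LPS p27 low cell, from 33 through a median of 3141 to 54706 CPM, against 0, 0 and 78.3 CPM in control p27 low cells. Its 67 cells at 100 CPM or more all lay above the highest control cell. Ccl5, a chemokine for T cells and monocytes, had 2695 CPM, and 1859 CPM without cell 55, which alone held 33.2% of its reads. Its per-cell values were 0, 63.3 and 27691 CPM, with 39 cells at 100 CPM or more. Cxcl9, another Cxcr3 ligand, had 724 CPM with per-cell values of 0, 10.8 and 18958, and 25.1% of its reads lay in 1 cell. Neither Ccl5 nor Cxcl9 had a read in the 93 control p27 low cells, so that against a floor of 3 reads over that group the level was at least 27337-fold higher for Ccl5 and at least 7347-fold higher for Cxcl9. All 3 chemokines reached 100 CPM in 13 of 90 cells, 2 of them in 31, 1 in 24 and none in 22 cells. In control p27 low cells none of the 3 reached 100 CPM in any of 93 cells.

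The spread between cells was measured as the coefficient of variation (the SD divided by the mean of CPM over cells) for 6308 protein-coding genes with at least 10 CPM and a read in at least 20% of cells, and genes were ranked against others of like mean. The 10 with the largest spread for their level were Cxcl9 (3.24), Pf4 (3.89), Acod1 (5.36), Ccl5 (2.51), Muc1 (5.45), Cd74 (3.45), Fos (2.16), Ccl9 (3.97), Gbp2 (2.09) and Neurl3 (1.96). Several rested on 1 cell. Acod1, which makes itaconate in activated macrophages, had 189 CPM with and 77.3 CPM without its highest cell. Pf4, the platelet chemokine, had 403 CPM with and 183 CPM without its highest cell, and Muc1, a membrane mucin, had 61.2 and 28.6 CPM. Ccl9 had 263 CPM with cell 55 and 115 CPM without it. Fos, a subunit of the AP-1 factor, and Gbp2, an interferon-induced GTPase, were broader, with 41 and 46 of 90 cells at 100 CPM or more.

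At the other end, the smallest spreads for their level were those of Rpl9-ps6 (0.382), Gm10073 (0.491), Rps27rt (0.521), mt-Atp6 (0.695) and Cst12 (0.800). The first 3 resemble ribosomal protein genes and can share reads with them, and mt-Atp6 is mitochondrially encoded. Among abundant immune genes, B2m had a coefficient of variation of 0.533 and H2-K1 of 0.386, close to that of Actb (0.358). Even in such well-read cells detection was patchy. Of 9064 genes with at least 10 CPM, 2810 were read in at least 50% of cells at 50000 reads, 140 in all cells, and 2204 in fewer than 20%. For 263 of the 9064, 1 cell held more than 50% of the reads.

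**Figure D2:**
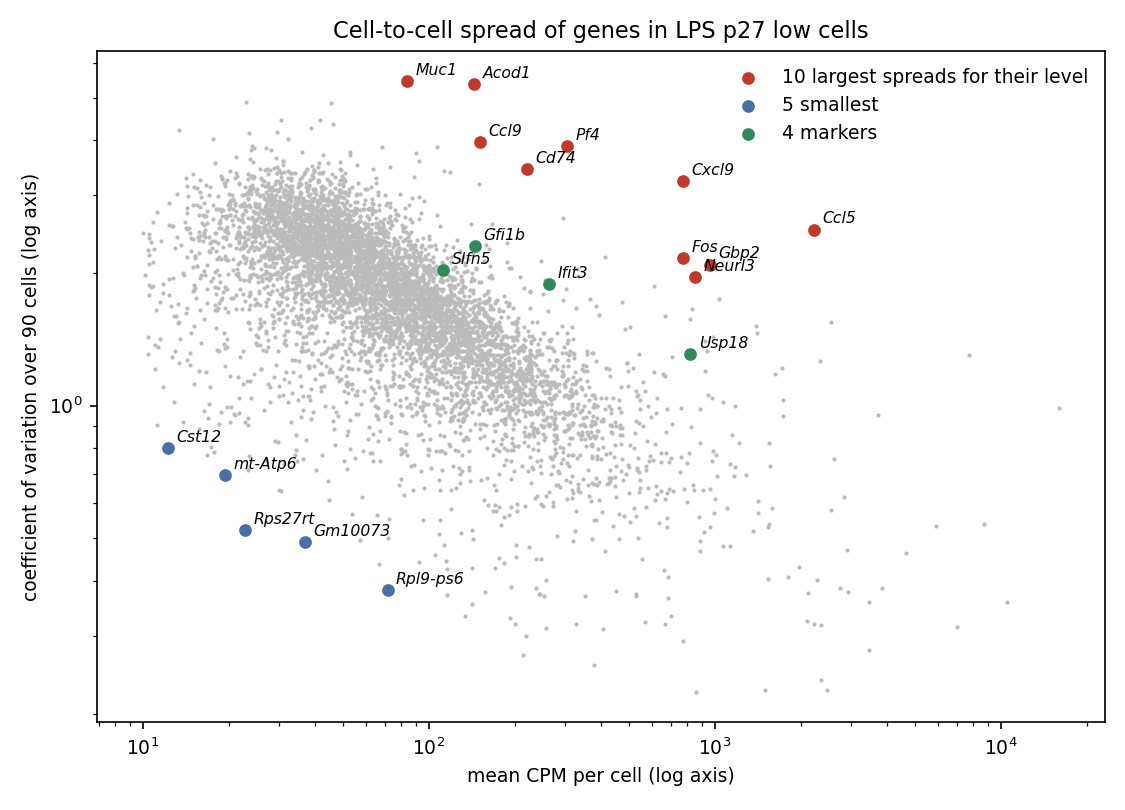
Coefficient of variation over 90 LPS p27 low cells against mean CPM per cell, both on log axes, for 6308 protein-coding genes (grey), with the 10 largest spreads for their level in red, the 5 smallest in blue and the 4 markers in green. Ccl5 and Cxcl9 lie far above genes of like mean, and Usp18 lies above most genes near its level.

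The interferon response differed widely from cell to cell. The summed CPM of 36 interferon-stimulated genes, among them Ifit, Oas and Mx family members, was 661 in the lowest, 16284 in the median and 61824 in the highest LPS p27 low cell. The corresponding values were 1457, 4987 and 69806 in LPS p27 high, 1111, 8274 and 63650 in LPS p27 negative and 398, 2399 and 26524 CPM in control p27 low cells. With bounds of 10000 and 5000 CPM chosen after the values were seen, 50 of 90 LPS p27 low cells (55.6%, 44.7 to 66) reached 10000 CPM, 32 lay under 5000 CPM and 8 lay between. At 10000 CPM or more stood 29 of 93 LPS p27 high (31.2%), 45 of 92 LPS p27 negative (48.9%) and 3 of 93 control p27 low cells (3.23%, 0.670 to 9.14). The cells at 10000 CPM or more were found in every block of cell numbers, with 18 of 28 among cell numbers 1 to 32, 14 of 31 among 33 to 64 and 18 of 31 among 65 to 96.

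The 24 interferon-gamma type genes, which include guanylate-binding proteins, immunity-related GTPases and MHC class II, had a wider range. Per-cell sums had a lower quartile of 963, a median of 11555 and a highest value of 78146 CPM in LPS p27 low cells, against a median of 866 and a highest value of 8118 CPM in control p27 low cells, and 50 of 90 cells lay above the highest control p27 low cell. The 24 NF-kB and inflammatory genes had sums of 500, 3682 and 43695 CPM against 23.8, 1191 and 5418 CPM, with 35 of 90 cells above the highest control p27 low cell. The cell at the 90th percentile exceeded the cell at the 10th by a ratio of 66.5 for interferon-gamma type, 24.6 for NF-kB and 21.6 for interferon-stimulated genes. That ratio was 2.80 for MHC class I and immunoproteasome genes, 3.32 for stem cell genes and 1.96 for respiratory chain genes. It was 277 for the Schlafen family, 52.2 for neutrophil and monocyte, 23.1 for LPS receptor, 16.3 for G2/M and 14.4 for platelet-lineage genes. A wide ratio was therefore not particular to the interferon and NF-kB lists.

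**Figure D3:**
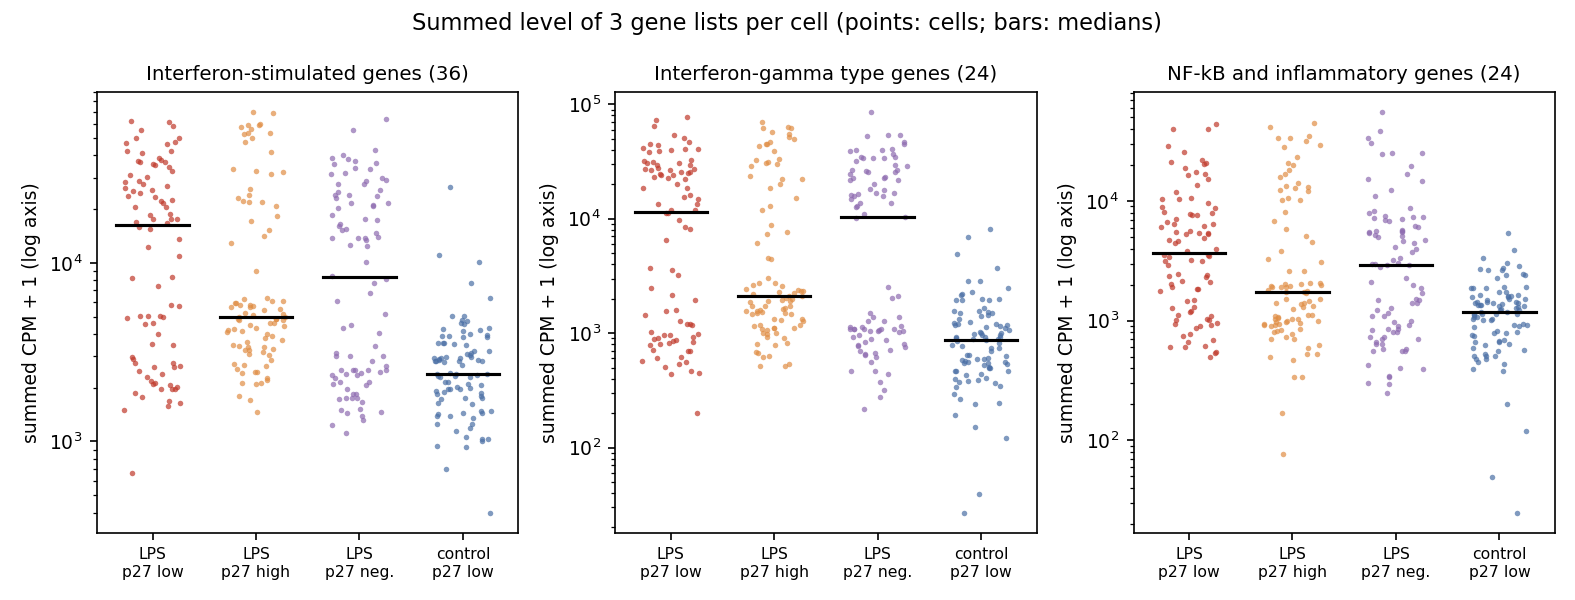
Summed CPM + 1 of interferon-stimulated, interferon-gamma type and NF-kB gene lists per cell on log axes, for LPS p27 low, LPS p27 high, LPS p27 negative and control p27 low cells, with points for cells and bars for medians. In LPS p27 low cells the first 2 lists span wide ranges, and 50 of 90 cells reached 10000 CPM of interferon-stimulated genes.

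Over all 90 cells the sum of interferon-stimulated genes had a Spearman rho of 0.90 with interferon-gamma type, 0.82 with MHC class I and 0.79 with NF-kB genes. It was -0.48 with stem cell, -0.38 with platelet-lineage and -0.39 with S-phase genes. Because few cells lay between the lower and the upper range, correlations were also described within each. Among the 50 cells with at least 10000 CPM of interferon-stimulated genes, that sum had a Spearman rho of 0.66 with interferon-gamma type, 0.62 with MHC class I, 0.37 with NF-kB, 0.02 with stem cell, -0.50 with platelet-lineage and -0.50 with S-phase genes. Among the 40 cells below, the rho was 0.50, 0.24, 0.09, 0.18, -0.08 and -0.42 for the same lists. The points of each correlation come from 1 sample and share each cell's own read total, so that a high sum of one list lowers the CPM of all others. The part of depth and of RNA per well in the spread of the interferon genes was not tested.

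**Figure D4:**
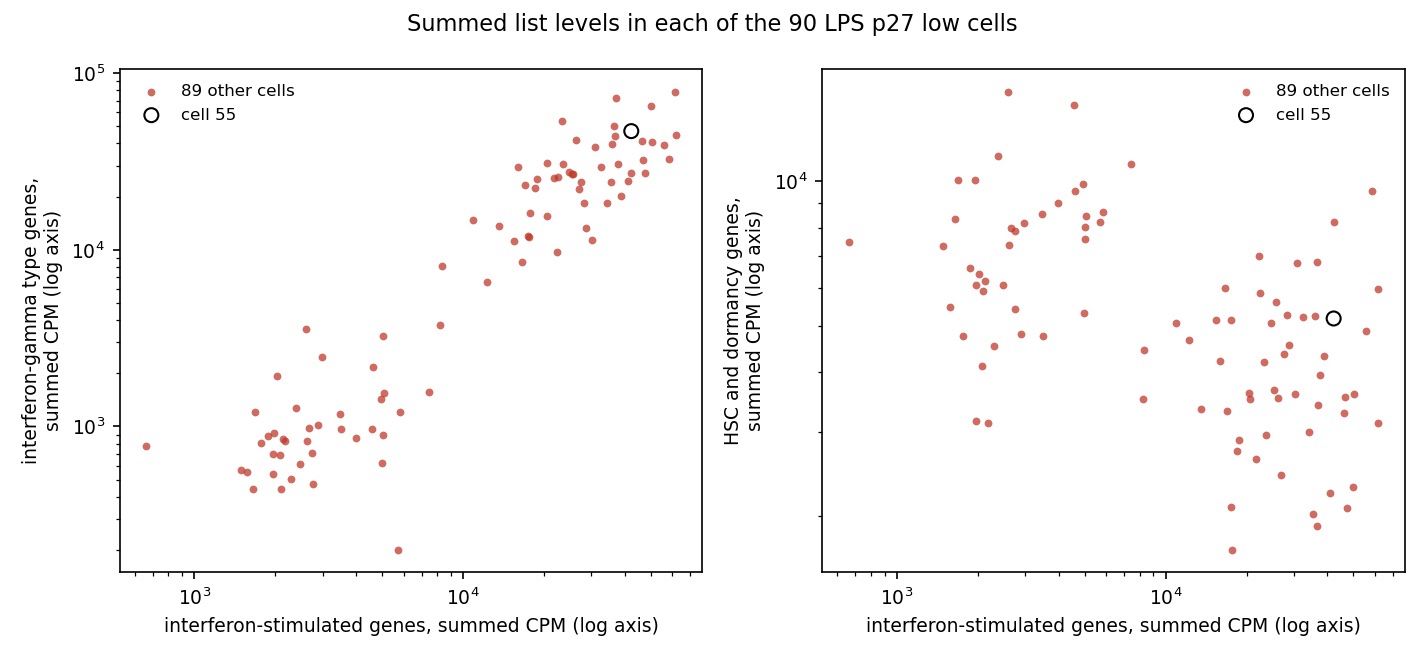
Summed CPM of interferon-gamma type genes (left) and of stem cell and dormancy genes (right) against that of interferon-stimulated genes in each of the 90 LPS p27 low cells, all axes log, with cell 55 circled. Over all 90 cells the rho was 0.90 on the left and -0.48 on the right. Within the 50 cells at 10000 CPM or more it was 0.66 on the left and 0.02 on the right.

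Against control p27 low cells, which share the marker class and lack LPS, interferon, chemokine and NF-kB genes were higher in LPS p27 low cells and many stem cell genes were lower. Among 10141 genes with at least 10 CPM in either group, 818 (8.07%) were at least 2-fold higher and 1704 (16.8%) at least 2-fold lower, on the scale of log2(CPM + 1) used for every fold here. With edgeR's TMM scaling the counts were 1012 and 1364, since the median over all genes moved by 0.17 from -0.18. In every comparison here, a gene under 10 CPM in 1 group was compared because of its level in the other alone. For such a gene the direction was fixed in advance, and it adds to the list counts below. Of 35 interferon-stimulated genes compared, 33 were at least 2-fold higher and 0 lower, the median of their log2 folds being 2.92 (block range 2.78 to 3.33), and the other two, Trim25 and Uba7, lay between. Rsad2 (viperin) had 2257 against 24.9 CPM, Ifit1 had 1364 against 6.44, Mx1 had 300 against 1.31 and Isg15, the ubiquitin-like modifier, had 124 against 2.92 CPM. Ifit1, Mx1 and Isg15 were thus compared through their LPS p27 low level alone. Summed over the 36 listed genes without this filter, the level was 17913 against 2842 CPM. Of 22 interferon-gamma type genes 19 were higher and 2 lower, with a median of 3.26. Iigp1, an immunity-related GTPase, had 673 against 35.4 CPM and Gbp5 had 242 against 5.29 CPM, while the MHC class II genes H2-Aa and H2-Eb1 were the pair on the lower side. Both were under 10 CPM in LPS p27 low cells and were compared through their control level alone, which fixed their direction. Gbp5 was compared through its LPS p27 low level alone.

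The signalling genes of these pathways were split. Of 20 IRF, STAT and JAK genes 8 were at least 2-fold higher and 0 lower. Irf7, a factor that amplifies the type I interferon response, had 500 against 34.3 CPM, whereas the receptor chains Ifnar1 and Ifnar2 and the kinases Jak1, Jak2 and Tyk2 were within 2-fold. Of 23 NF-kB and inflammatory genes 20 were higher and 0 lower with a median of 2.09. Nfkbia, the NF-kB inhibitor, had 1596 against 299 CPM, and the subunits Rela, Rel and Nfkb1 were within 2-fold. Il6 had 65.7 CPM and no read in control p27 low cells, at least 666-fold higher. Ccl3 had 96.8 against 1.54 CPM, but 14.8 CPM without cell 55, which held 85.2% of its reads. Of 9 LPS receptor genes 0 were higher and 2 lower, a number too small to set apart from the 16.8% of all genes. Tlr4 itself had 2.45 against 26.5 CPM, or 0.586 CPM without its highest LPS p27 low cell, and Lbp had 11.4 against 74.7 CPM. Of 13 SOCS and interferon feedback genes 3 were higher (Socs3, Usp18 and Socs1) and 1 lower (Socs2), with a median of -0.08. The shares of all genes were 8.07% higher and 16.8% lower. Socs1 had 57.7 against 7.33 CPM, and Socs3 had 117 against 0.197 CPM, or 76.9 CPM without cell 55.

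MHC class I and immunoproteasome genes were higher by small steps. Of 17 compared, 4 were at least 2-fold higher (Nlrc5, Tapbp, H2-Q4 and Tap1) and 0 lower, with a median of 0.70. B2m had 5766 against 4154 CPM. Of the Schlafen family 3 of 5 were at least 2-fold higher, namely Slfn5, Slfn2 (211 against 35.5 CPM) and Slfn8 (253 against 47.4 CPM).

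Stem cell and dormancy genes were on average lower. Of 36 compared, 2 were at least 2-fold higher (Cdkn1a and Egr1) and 13 lower, with a median of -0.83 next to the all-gene median of -0.18. In LPS p27 low cells 31 of the list reached 10 CPM. The rest of the 36 were compared because of their control level alone, which fixed their direction. Fgd5, Pygm, Clec1a and Cdkn1c were among these and among the 13. Fgd5 had 0.324 CPM (0.148 to 0.615), a total of 9 reads, against 43.8 CPM (41.5 to 46.2), with 9 of 90 cells holding a read before thinning and no cell above 6.75 CPM, against 7 of 93 control p27 low cells at 100 CPM or more. Hlf, a factor of stem cell maintenance, had 27.8 against 164 CPM, and Procr (EPCR), Esam and Mllt3 had 25.1 against 93.1, 92.9 against 365 and 39.2 against 132 CPM. Txnip had 647 against 1797 CPM. Meis1 with 332 against 449 CPM and Mecom with 34.6 against 56.3 CPM were within 2-fold. The median summed level of this list per cell was 5142 against 7527 CPM.

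Lineage genes differed in direction by gene. Of 18 haematopoietic transcription factors 2 were at least 2-fold higher and 0 lower, next to 8.07% and 16.8% of all genes. By sign alone 4 were higher and 14 lower, with a median of -0.50. The 2 past 2-fold were Spi1 (PU.1), which directs myeloid fate, with 464 against 220 CPM, and Cebpb, active in emergency granulopoiesis, with 22.5 against 6.18 CPM. Of 16 platelet-lineage genes 0 were higher and 7 lower, including Vwf with 63.6 against 158 CPM and Treml1 with 17.1 against 94.1 CPM. Of 9 erythroid genes 2 were higher and 2 lower, numbers too small to set apart from the shares of all genes. Lcn2 and Csf3r were the higher members of the neutrophil and monocyte list, and Lcn2 had 115 against 5.39 CPM, or 63.1 CPM without cell 55, with a read in 7.78% of cells. Ly6a had 1090 against 122 CPM and Kit had 318 against 542 CPM, so 2 genes of the sorting gate differed in opposite directions.

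The summed level of the 30 G2/M genes was 245 CPM against 571 CPM in control p27 low cells, and the median cell had 132 against 266 CPM. Of 15 compared 0 were at least 2-fold higher and 10 lower, with a median of -1.81 that ran from -2.73 to -0.03 over the blocks. Only 6 of the 30 reached 10 CPM in LPS p27 low cells. The rest of the 15 were compared because of their control level alone, which fixed their direction in advance. High control levels lay in few cells, with 5 of 93 at 100 CPM or more for Cenpf and 7 of 93 for Ccnb2. Mki67 had 36.3 against 64.2 CPM. Of 29 S-phase genes 0 were higher and 2 lower, with a median of -0.12 whose sign turned with TMM or DESeq2 scaling, with means of per-cell CPM and without the top cell of each gene. Cdk6, the kinase of early G1, had 1038 against 618 CPM and Ccnd2 1155 against 672 CPM, both under 2-fold, and Cdkn1a (p21) had 54.7 against 15.5 CPM. Cdkn1b, the p27 gene itself, had 62.9 against 68.5 CPM, within 2-fold.

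Over all genes, those highest by the block rule were Ccl5, Cxcl10, Cxcl9, Serpina3f, Mx1, Ifit1, Tnfrsf9 and Gadd45b. Of these, Ccl5, Cxcl10, Cxcl9, Mx1 and Ifit1 are members of lists already counted above. Tnfrsf9 (4-1BB) had 142 CPM and no read in control p27 low cells, at least 1445-fold higher, and Gadd45b, a stress-inducible NF-kB target, had 145 against 0.329 CPM. On the lower side the first 8 were Eepd1, Il21r, Fam110c, Myl10, Art4, Dgkg, Calcrl and Haus8. Il21r had 18.9 against 193 CPM with a read in 17.8% against 59.1% of cells, and Calcrl, the receptor chain for adrenomedullin and CGRP, had 4.14 against 56.7 CPM.

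**Figure D5:**
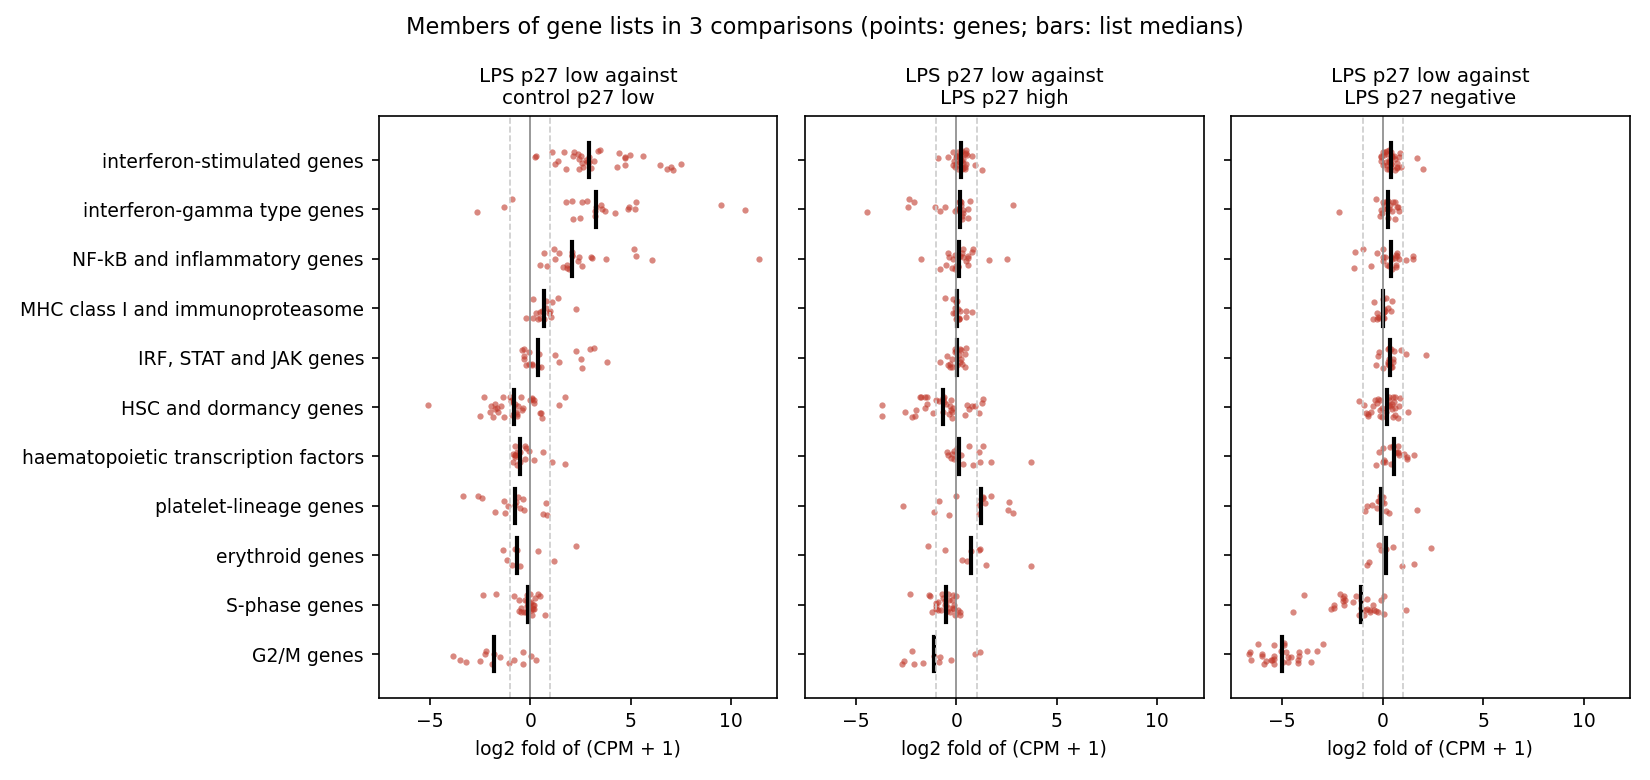
Log2 fold of (CPM + 1) of LPS p27 low cells against control p27 low, LPS p27 high and LPS p27 negative cells for members of 11 gene lists, with points for genes, black bars for list medians and dashed lines at 2-fold. Interferon-stimulated genes have a median of 2.92 against control p27 low, 0.22 against LPS p27 high and 0.40 against LPS p27 negative cells, and G2/M genes lie far to the left in the comparison with LPS p27 negative cells, with a median of -5.02.

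Against LPS p27 high cells, which had the same treatment and more of the p27 marker, summed interferon levels were close and lineage genes differed. Among 10017 genes 625 (6.24%) were at least 2-fold higher and 1172 (11.7%) at least 2-fold lower. Of 35 interferon-stimulated genes 1 was at least 2-fold higher, Mx2 with 165 against 66.9 CPM, and 0 lower, and the median log2 fold was 0.22. The summed level of that list was 17913 against 15741 CPM, although the median cell had 16284 against 4987 CPM. Of 22 interferon-gamma type genes 1 was higher and 5 lower, with on the lower side Gbp9, the MHC class II genes H2-Aa (4.39 against 116 CPM), H2-Ab1 and H2-Eb1 and their invariant chain Cd74 (197 against 858 CPM). Cxcl9 was the higher one, with 724 against 101 CPM.

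Most platelet-lineage genes and some erythroid genes had higher summed levels than in LPS p27 high cells. Of 15 platelet-lineage genes 10 were at least 2-fold higher and 2 lower, with a median of 1.20 that ran from -0.17 to 1.73 over the blocks. The median cell did not differ, with 1291 against 1293 CPM summed over this list, and 45 of 90 cells lay above the LPS p27 high median. The highest cells had 14499 against 5346 CPM. Of 9 erythroid genes 4 were higher (Gata1, Aqp1, Klf1 and Epor) and 1 lower (Hbb-bt). Of 18 haematopoietic transcription factors 5 were higher and 0 lower: Gata1, Gfi1b, Zfpm1, Klf1 and Gata2. Gata1, the master factor of red cells and megakaryocytes on chrX:7959260-7978071, had 130 against 8.95 CPM, and 24 of 90 against 3 of 93 cells held at least 100 CPM. Itga2b (CD41) had 318 against 116 CPM and Gp5 had 68.3 against 10.1 CPM. Pf4 had 403 against 67.6 CPM, of which 1 cell held 55.6% of the LPS p27 low reads. The levels of Gata1, Itga2b and Pf4 did not exceed those of control p27 low cells, where Gata1 had 186 CPM and Pf4 577 CPM.

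The genes highest by the block rule included Mfsd2b, Gata1, Tuba8, Gp5, Slc14a1, Runx3 and Phf8. Mfsd2b, the sphingosine-1-phosphate exporter of red cells and platelets, had 134 against 6.70 CPM with a read in 41.1% against 11.8% of cells. Phf8, a histone demethylase, had 60.2 against 9.25 CPM and 36.7 CPM without cell 55. On the lower side stood H2-Aa, Sult1a1, Lhcgr, Calcrl, Lbp, Pdcd7, Rec8 and Hlf. Sult1a1, a sulfotransferase, had 23 CPM (21.2 to 24.8) against 315 (309 to 321), with 5 of 90 against 49 of 93 cells at 100 CPM or more. Of 36 stem cell and dormancy genes 3 were higher, Vwf and Gata2 among them, and 14 lower, with a median of -0.65. Cdkn1b had 62.9 against 108 CPM, and its per-cell values, 0, 42.1 and 242 against 0, 68.4 and 417 CPM, overlapped.

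Against LPS p27 negative cells the main difference was the cell cycle. Among 9791 genes 717 (7.32%) were at least 2-fold higher and 890 (9.09%) at least 2-fold lower, or 517 and 1025 without the highest cell of each gene in each group. All 30 of 30 G2/M genes compared were at least 2-fold lower, with a median of -5.02. Only 6 of the 30 reached 10 CPM in LPS p27 low cells. The rest were compared because of their LPS p27 negative level alone, which fixed their direction in advance. Summed over the 30 genes, the level was 245 against 6641 CPM, and the median cell had 132 against 4906 CPM. Ccna2 (cyclin A2) had 3.78 CPM (3.09 to 4.58) against 501 (495 to 508). No LPS p27 low cell reached 100 CPM of Ccna2, with a maximum of 42.7 CPM, while 77 of 92 LPS p27 negative cells did. Of 30 S-phase genes 1 was higher and 16 lower with a median of -1.07, and Pcna had 125 against 241 CPM. Nuf2, Cdca8, Cdca5, Ube2c, Bub1, Cenpf and Kif20b completed the first 8 on the lower side. LPS p27 low cells also held fewer genes at equal depth (median 3972 against 4920) and fewer gene reads per spike-in read (24.3 against 46.2), and the part of these in the result was not tested.

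Interferon genes were close in summed level to LPS p27 negative cells, with 2 of 35 interferon-stimulated genes at least 2-fold higher, 0 lower and a median of 0.40. By sign alone 32 were higher and 3 lower. The summed level of that list was 17913 against 14318 CPM, although the median cell had 16284 against 8274 CPM. The first genes on the higher side included Slfn5, Wdr59, Myo1g, Akna, AI987944, Msmo1 and Ms4a4c. Msmo1, an enzyme of cholesterol synthesis, had 125 against 29.9 CPM. Ms4a4c had 88.5 against 1.24 CPM and 25.3 CPM without cell 55. Of 18 haematopoietic transcription factors 4 were higher (Klf1, Gfi1b, Ikzf2 and Cebpb) and 0 lower.

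Few genes set LPS p27 low cells apart from all 5 other groups. Of 11152 genes with at least 10 CPM in any group, 74 (0.664%) were at least 2-fold above every other group and 304 (2.73%) at least 2-fold below. The other groups include control p27 high and control p27 negative cells, whose levels of single genes are not printed. Plac8, a cysteine-rich protein of myeloid and lymphoid cells on chr5:100553725-100572245, had 958 CPM (947 to 970) against 213 (208 to 218) in LPS p27 high, 241 (236 to 245) in LPS p27 negative and 143 (139 to 147) in control p27 low cells. Its per-cell values were 0, 275 and 8849 CPM, and 59 of 90 cells held at least 100 CPM against 35 of 93 LPS p27 high cells, 36 of 92 LPS p27 negative and 38 of 93 control p27 low cells. Fam206a had 117 CPM against 37.1, 55.4 and 35.5 CPM in the same order of groups. Ms4a6c had 110 CPM against 49.2, 17.1 and 11.1 CPM, and cell 55 held 32.2% of its reads. Acod1 and Ccl9, the other 2 genes named on this side, rested largely on 1 cell each. Below all others stood Calcrl, Tnfrsf18, Lrrc49, Selenoh, Pbk and Phactr2. Calcrl had 4.14 CPM against 54.7 in LPS p27 high, 21.2 in LPS p27 negative and 56.7 in control p27 low cells.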

How the data were processed

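Single-cell libraries were aligned with GSNAP 2015-09-29 to mm10 and counted with HTSeq 0.6.0, per the submitters' processing notes. The authors deposited raw read counts per gene and cell in 2 tables with 46078 genes, 92 spike-ins and 5 summary rows. Of the reads of all 96 LPS p27 low cells, 31.8% were assigned to genes, 1.33% to spike-ins, 7.12% to no feature, 4.27% were ambiguous and 55.5% did not align. Summary rows and spike-ins were left out of totals.

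Levels are CPM of summed reads. TPM used exon unions of GENCODE M21. Shares of cells count at least 1 read after thinning to 50000 reads. Folds are log2(CPM + 1), LPS p27 low minus the other group, for genes with at least 10 CPM in either. No test across cells was made, since cells are not replicates, and no doublet caller was run on these sorted wells. Spread was compared with a running median over genes of like mean. The steps were tested on simulated data. Members and gene lists were chosen with earlier results of these data known. Named genes were the 4 markers, the 10 highest by TPM, the 10 largest and 5 smallest spreads, the first 8 each way per comparison by their smallest fold over 3 blocks of cell numbers, up to 6 outside all groups, list members highest by TPM or fold, and sorting and cycle genes, and counts of few list members are spelled out by name. No cells of the tables had identical counts. Sequences were matched by symbol in RefSeq promoter tables. Alternatives covered scaling, filters, pseudocounts, thinning, cell filters and single cells left out. Python 3.11.15, R 4.3.3, edgeR 4.0.16 (TMM) and DESeq2 1.42.0 (size factors) were used. A few genes that this rule or the lists name are not reported here.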

Additional observations from a re-analysis of the deposited data

How the results depend on the processing

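No paired analysis was possible because each group was 1 sample and cell numbers only name cells. Of 9000 fold values of named genes under alternatives, 8576 kept sign and side of 2-fold, 10 past 2-fold changed sign, and 787 of 828 list medians moved by no more than the spread over the 3 blocks. The 750 fold values at a minimum of 1 CPM and the 750 without a filter could not change, since a filter leaves a gene's own fold as it is. Levels and shares of named genes moved more often, with 1762 of 2750 levels and 359 of 1000 shares outside their interval of counting error. Keeping genes from 1 CPM, or all genes, gave the same counts, because a 2-fold difference of CPM + 1 needs at least 1 CPM. These were 1680 higher and 2755 lower than in control p27 low, 1376 and 2257 against LPS p27 high, 1524 and 1830 against LPS p27 negative, and 262 above all other groups. With 5 CPM added, the G2/M median against LPS p27 negative was -3.94, and 45 genes lay above and 104 below all other groups. With means of per-cell CPM, the interferon-stimulated median against control p27 low was 2.56 and 48 genes lay above all other groups, while without the top cell of each gene 41 did.

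Signs turned for Ccl9 against LPS p27 high (-0.34 with per-cell means, -0.11 without cell 55), Ccl3 against LPS p27 negative (-0.41 and -1.11 in the same settings) and against LPS p27 high (-0.10 without cell 55), and Slfn1 against LPS p27 high (-0.38) and LPS p27 negative (-0.22) without cell 55. They also turned for Klrb1c against control p27 low in cells with 200000 reads (1.20), and, without top cells, for Tk1 against control p27 low (0.90) and Cd4 against LPS p27 high (-0.04). Leaving out cell 55 was chosen after seeing the data.

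Shares depended on depth. Usp18 was found in 92.3% of cells at 200000 reads, 95.6% without thinning and 68.9% when 5 reads were required. Ifit3 was found in 69.2% at 200000 reads and 77.8% without thinning, Slfn5 in 54.4% without thinning, and Gfi1b in 47.7% and 45.6%. The median number of genes was 5185 at 200000 reads and 5664 without thinning. A gene near 1 read per cell was not measurable in single cells at these depths, and the cause of each change was not tested.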

Other observations

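Of 17 immediate early and stress genes compared, 4 (Atf3, Ier5, Egr1 and Junb) were at least 2-fold higher than in control p27 low cells and 1 (Fosl2) lower. Over all genes 8.07% were higher and 16.8% lower. Atf3, a stress-induced factor, had 139 CPM, or 63.5 CPM without cell 55. Of 27 respiratory chain genes none passed 2-fold in either direction, and the summed level of that list was 8464 CPM in LPS p27 low and 8949 CPM in control p27 low cells. Calcium handling genes gave 0 higher and 5 lower (Trpv2, Camk2g, Stim1, Atp2b4 and Slc8b1) of 28, next to 16.8% of all genes lower, with summed levels of 2856 and 3778 CPM in the same order of groups. Of 19 glycolysis genes 1 was higher (Pfkfb3) and 2 lower (Pfkm and Ldhb), next to 8.07% and 16.8% of all genes.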
